A study of Aspergillus nidulans with 6 samples.

Results

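AtfA peaks at 4 genes of *Aspergillus nidulans* conidia, *conJ* (AN5015), *ccgA* (AN9285), *dlpA* (AN5324) and *awh11* (AN3725), were followed through 6 ChIP-seq libraries. The 4 genes were chosen from these same peak lists, as genes of conidial and stress proteins at which AtfA peaks had been seen, so the presence and the level of their peaks are a description and carry no test. Every peak that overlapped the interval of a gene by at least 1 bp was taken, which gave 24 of the 2723 peaks in the lists and 4 of the 707 regions formed when overlapping peaks of the 6 lists were merged. The intervals are the outer limits of the peaks found there, so they add no information on position beyond the peaks themselves.

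All libraries came from 1 strain, *atfA*::3XFLAG, which is *veA*+ and carries the markers *pyroA4* and *pyrG89*. Its own *atfA* gene had been replaced (Δ*atfA*::*AfupyrG*+), and a FLAG-tagged copy (*atfA*-3XFLAG::*pyroA*+) driven by the *atfA* promoter and followed by the *trpC* terminator had been brought in on a vector. Chromatin bound by tagged AtfA was precipitated with an anti-FLAG antibody from asexual spores (conidia) harvested from surface cultures. There were 2 libraries each of untreated conidia from cultures 2 days old, Untr. (2 d), untreated conidia from cultures 3 days old, Untr. (3 d), and conidia from cultures 3 days old that had been exposed to 0.04 mM menadione sodium bisulfite, MSB Tr. (3 d). MSB is a compound that cycles electrons to oxygen and so loads cells with superoxide. All groups carry the tag, and an input, an untagged strain or a mock precipitation was not analysed here. The lists hold 434 to 473 peaks each. They give no read counts, so the depth behind a peak is unknown. The study calls the libraries of a condition biological replicates, while the labels only number them and do not name separate cultures, so any p-value measures the spread between these libraries. The peak names inside the lists begin with LE-ChIP in Untr. (2 d), with K3D in Untr. (3 d) and with LE-MSB in MSB Tr. (3 d). Untr. (2 d) and MSB Tr. (3 d) thus share the stem LE-, and Untr. (3 d) stands apart. Whether the prefix or its stem marks a batch is not stated, so such a batch and the condition cannot be told apart.

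AtfA is a transcription factor of the bZIP family, whose members bind DNA as dimers, and it acts downstream of the stress-activated kinase SakA/HogA. In *A. nidulans* it is known for the stress tolerance and viability of conidia, the cells in which the fungus survives drought, heat and oxidants until it germinates. A ChIP-seq peak shows where DNA is enriched with the tagged factor in a population of spores and says nothing by itself about transcription. The genes described here encode small proteins of that dormant state. *conJ* is the *A. nidulans* homologue of the *Neurospora crassa* conidiation gene *con-10*. *ccgA* is the putative orthologue of the *N. crassa* glucose-repressible and clock-controlled gene known as *grg-1* or *ccg-1*, and both *conJ* and *ccgA* are induced by light. *dlpA* encodes a dehydrin-like protein, a class of hydrophilic proteins tied to tolerance of water loss, and *awh11* encodes a protein of conidia that resembles small heat-shock proteins.

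Each of the 4 genes had exactly 1 peak in each of the 6 libraries, and each interval coincided with 1 merged region. Of all 707 merged regions 35.4% had a peak in all 6 libraries, that is 250 regions. Because the genes were chosen on these peaks, nothing is read from the 4 of 4. In the coordinates of the peak lists, which follow the *A. nidulans* genome of JGI MycoCosm, the peaks of *conJ* together covered III:275381-276620, those of *ccgA* VIII:174361-175320, those of *dlpA* V:3143821-3144620 and those of *awh11* II:3270081-3270680. The stretch covered in all 6 libraries was 660 bp at *conJ*, which is 53.2% of the outer limits, 700 bp at *ccgA* (72.9%), 440 bp at *dlpA* (55%) and 360 bp at *awh11* (60.0%). All 6 summits lay inside the shared stretch at each of the 4 genes. How often this holds among the 250 regions was not counted, so nothing is read from it. The regions were tied to their genes through the peak positions that the study lists for each gene, without a gene annotation that shares the coordinates of the lists, so whether a peak lies over an exon, an intron or a UTR was not analysed here. In the RefSeq annotation, which is of another assembly, the genes lie on the same chromosomes as their peaks. There *conJ* stands between AN5016 and AN5014, *ccgA* between AN9284 and AN9286, *dlpA* between AN5325 and AN5323, and *awh11* between AN3726 and AN3724. None of these neighbours was placed on the 4 regions. Only 281 genes had enough listed positions to be placed, so a neighbour outside them could not be. The absence therefore does not show that a peak belongs to the named gene alone.

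The 4 genes held very different places in the lists. The deposited score of a peak is a whole number made by the peak caller from the coverage track of that library, and it was turned into a percentile within its list, where 100 is the best-scored peak. At *conJ* the score percentile was 99.8 and 99.3 in Untr. (2 d) conidia, 98.7 and 99.1 in Untr. (3 d) conidia, and 98.9 and 99.1 in MSB Tr. (3 d) conidia. That put *conJ* at rank 2 to rank 7 in every library, with a mean percentile of 99.2 ± 0.368 (SD, n = 6), and all values lay between 98.7 and 99.8.

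At *ccgA* the score percentile was 96.3 and 99.1 in Untr. (2 d) libraries, 99.2 and 99.6 in Untr. (3 d) libraries, and 99.6 and 99.8 in MSB Tr. (3 d) libraries, with a mean of 98.9 ± 1.30 (SD, n = 6). One library stood below the others. In Untr. (2 d) replicate 1 *ccgA* had rank 18.5, a tie, whereas it had rank 2 to rank 5 in the other 5 libraries.

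At *dlpA* the score percentile was 91.5 and 97.5 in Untr. (2 d) spores, 97.9 and 96.7 in Untr. (3 d) spores, and 95.4 and 92.6 in MSB Tr. (3 d) spores, with a mean of 95.3 ± 2.63 (SD, n = 6). Its rank ran from 11 to 41. The lowest value and one of the higher values came from the same condition, Untr. (2 d), so its libraries spanned most of the range.

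At *awh11* the score percentile was 48.0 and 70.2 in Untr. (2 d) conidia, 42.5 and 22.4 in Untr. (3 d) conidia, and 66.6 and 61.3 in MSB Tr. (3 d) conidia, with a mean of 51.8 ± 17.9 (SD, n = 6). The peak of this small heat-shock-like gene was therefore mid-list where the other genes were near the top. Both Untr. (3 d) libraries held the lowest values.

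**Figure D1:**
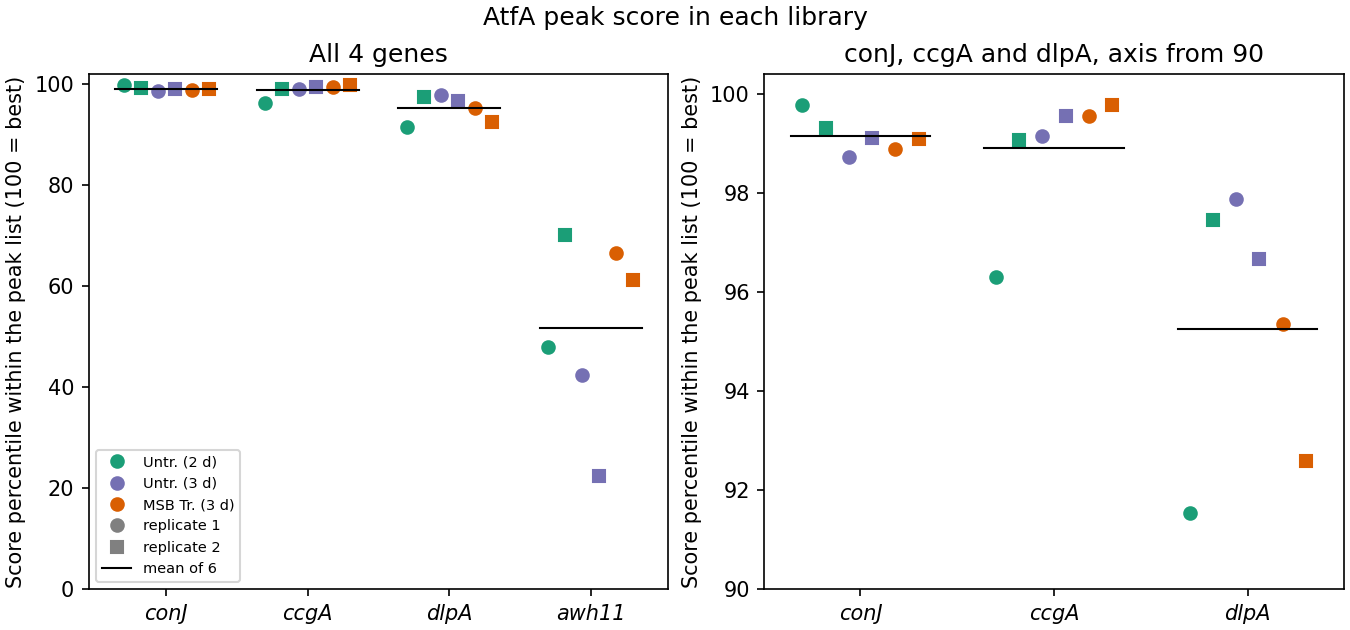
Score percentile (100 is the best-scored peak of a list) of the peak at each gene in each of the 6 libraries. Colours stand for the conditions, circles and squares for replicates 1 and 2, and the line for the mean of 6; the right panel repeats 3 genes on an axis that starts at 90. *conJ* stayed between 98.7 and 99.8, while *awh11* ran from 22.4 to 70.2.

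Among the 250 regions with a peak in all 6 libraries the mean percentile had a median of 68.7. Only 2 regions had a larger mean than *conJ*, 3 a larger mean than *ccgA*, 16 a larger mean than *dlpA* and 188 a larger mean than *awh11*. The SD of the percentile had a median of 10.7 over these regions. At *awh11* it was larger than in 211 of the 250 regions, and at *conJ* larger than in 2. A percentile that is near 100 has little room to vary, so the small SD of the 3 well-scored genes is not independent of their level.

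Scores divided by the median score of their own list showed the size of these differences. At *conJ* the score was 4.32 and 3.78 times the list median in Untr. (2 d) libraries, 2.70 and 2.75 times in Untr. (3 d) libraries, and 2.05 and 1.63 times in MSB Tr. (3 d) libraries. At *ccgA* it was 2.43 and 3.19 times, 3.15 and 2.86 times, and 2.14 and 1.65 times in the same order. At *dlpA* it was 1.95 and 2.60 times, 2.29 and 2.15 times, and 1.81 and 1.42 times. All 3 genes had their lowest multiples in MSB Tr. (3 d), but so did the lists as a whole. The best score of a list was 5.00 and 4.96 times its median in Untr. (2 d) spores, 5.19 and 3.73 times in Untr. (3 d) spores, and only 2.30 and 1.67 times in MSB Tr. (3 d) spores. At *awh11* the score was 0.987 and 1.29 times the list median in Untr. (2 d) conidia, 0.932 and 0.795 times in Untr. (3 d) conidia, and 1.19 and 1.09 times in MSB Tr. (3 d) conidia. It was under the median in 3 of the 4 untreated libraries and above it in both MSB libraries.

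The order of the genes by score can be read within each library, where no scaling between lists enters. *conJ*, *ccgA* and *dlpA* stood above *awh11* in all 6 libraries, and *ccgA* stood above *dlpA* in all 6. Over the libraries the percentile ranges of *conJ* and *ccgA* overlapped and so did those of *ccgA* and *dlpA*, while those of *dlpA* and *awh11* did not. The ratio of the *conJ* score to the *ccgA* score was 1.77 and 1.18 in Untr. (2 d) libraries, 0.855 and 0.963 in Untr. (3 d) libraries, and 0.954 and 0.984 in MSB Tr. (3 d) libraries. *conJ* thus led in both libraries of 2 days and *ccgA* led in all 4 libraries of 3 days, the treated ones included. This change of order was noticed after the values had been seen. Of the 31125 pairs of regions with peaks in all 6 libraries 0.961% changed order in this way. These regions have mean percentiles from 16.7 to 99.9, and regions far apart in score can hardly change order. Pairs as close in score as *conJ* and *ccgA* were not counted alone. How rare the change is among such pairs is therefore unknown. The ratio was close to 1 in 3 of the 4 libraries of 3 days, and the size of the lead in Untr. (2 d) replicate 1 went with the low rank of *ccgA* there.

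The ratio of *ccgA* to *dlpA* was 1.25 and 1.23 in Untr. (2 d) spores, 1.38 and 1.33 in Untr. (3 d) spores, and 1.19 and 1.17 in MSB Tr. (3 d) spores. The ratio of *dlpA* to *awh11* was 1.97 and 2.02, 2.45 and 2.71, and 1.52 and 1.30 in the same order. Both ratios were highest in Untr. (3 d) and lowest in MSB Tr. (3 d), with no overlap between conditions, an order that was noticed after the values had been seen and that 3.07% of all pairs of regions had. Of the 6 pairs that the 4 genes form, 5 had a ratio that was lower in both MSB libraries than in all 4 untreated libraries, all but *conJ* to *ccgA*. The same was seen in 19.4% of all pairs of regions. The 5 pairs share genes and are not independent, and the narrower range of scores in the MSB lists, given above, moves with them. Its part in these ratios was not tested.

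**Figure D2:**
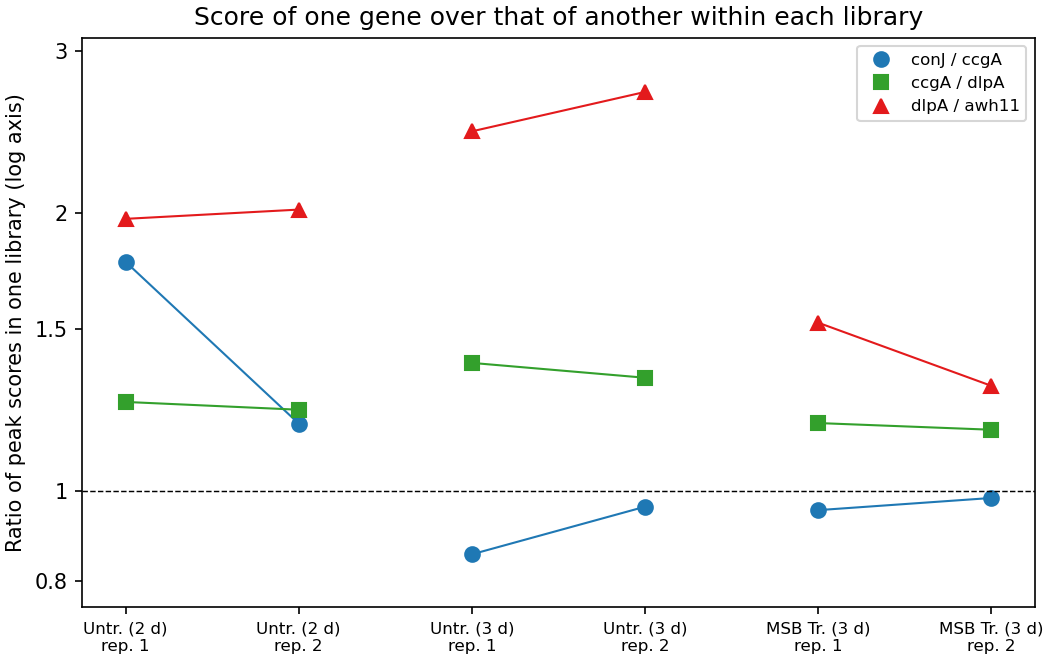
Ratio of the score of one gene to that of another within each of the 6 libraries, on a log axis, with the dashed line at equal scores. Each symbol is 1 library, and lines join the 2 replicates of a condition. The ratio of *conJ* to *ccgA* was above 1 in both Untr. (2 d) libraries and under 1 in the other 4, and the ratio of *dlpA* to *awh11* ran from 1.30 to 2.71.

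The comparison of treated with untreated conidia asks whether oxidative stress was accompanied by a change at these genes. Both MSB libraries were compared with the 4 untreated ones by a two-sided exact permutation test, in which the smallest possible p is 0.0667, so no call at 0.05 could be reached, and p-values were adjusted (Benjamini-Hochberg) over all 250 regions. The score percentile in MSB Tr. (3 d) minus that in untreated conidia was 18.2 points at *awh11* (exact p = 0.333, adjusted p = 0.859), 1.14 at *ccgA* (exact p = 0.4, adjusted p = 0.864), -0.243 at *conJ* (exact p = 0.533, adjusted p = 0.871) and -1.91 at *dlpA* (exact p = 0.467, adjusted p = 0.864). At *conJ*, *dlpA* and *awh11* the treated values overlapped the untreated ones. At *ccgA* both treated values lay above the untreated ones, but the separation was nominal, because *ccgA* had rank 3 in MSB Tr. (3 d) replicate 1 and rank 3 in Untr. (3 d) replicate 2, in lists of 453 and 451 peaks. Both MSB percentiles were above all 4 untreated ones in 10.8% of the 250 regions. The median difference in score percentile over these 250 regions was 1.22 points. Of the 250 regions 0 had an unadjusted p under 0.05, as the design requires.

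For *awh11* the difference depended on which untreated libraries MSB Tr. (3 d) was compared with. These differ in age and in the prefix of their peak names, which cannot be told apart. Its mean score percentile was 59.1 in Untr. (2 d) conidia, 32.4 in Untr. (3 d) conidia, and 63.9 in MSB Tr. (3 d) conidia, so MSB Tr. (3 d) stood 31.5 points above Untr. (3 d) and 4.84 points above Untr. (2 d). Both MSB values were above both Untr. (3 d) values, and both lay between the Untr. (2 d) values. *ccgA*, by the same nominal margin as above, was the other of the 4 genes with both MSB percentiles above both Untr. (3 d) percentiles, and 29.2% of the 250 regions had this order. At *dlpA* both MSB percentiles were below both Untr. (3 d) percentiles, an order found in 25.2% of the 250 regions. With 2 libraries against 2 the smallest two-sided exact p is 0.333, so the differences between ages are given as values with no test.

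Between 2 and 3 days of untreated culture the mean score percentile of *awh11* differed by -26.6 points and that of *conJ* by -0.626 points, and at both genes the 2 days libraries were above the 3 days libraries without overlap. That order was found in 17.2% of the 250 regions. The mean percentile differed by 1.67 points at *ccgA* and by 2.78 points at *dlpA*, in the other direction. At *ccgA* both libraries of 2 days were below both of 3 days, which was also found in 17.2% of the regions, but this separation was nominal too, with rank 5 in Untr. (2 d) replicate 2 and in Untr. (3 d) replicate 1. At *dlpA* one library of 2 days lay between those of 3 days.

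Peaks at all 4 genes were wider than the median peak of their list in every library. Many other regions had this too. The lowest width of a region over the 6 libraries had a median of 0.944 times the list median in the 250 regions. Its upper quartile was 1.24 times. At *conJ* the width was 660 and 1240 bp in Untr. (2 d) libraries, 920 and 800 bp in Untr. (3 d) libraries, and 1040 and 820 bp in MSB Tr. (3 d) libraries, which is 2.2 to 3.65 times the list median. Its narrowest and its widest peak both came from Untr. (2 d). At *ccgA* the width was 700 and 960 bp, 880 and 820 bp, and 880 and 740 bp in the same order, or 2.06 to 2.82 times the list median. The mean over 6 libraries was 913 ± 204 bp (SD) at *conJ* and 830 ± 97.0 bp at *ccgA*. Only 7 of the 250 regions were wider on average than *conJ*, and 10 than *ccgA*.

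At *dlpA* the width was 440 and 680 bp in Untr. (2 d) spores, 500 and 600 bp in Untr. (3 d) spores, and 780 and 500 bp in MSB Tr. (3 d) spores, or 1.39 to 2.00 times the list median. At *awh11* it was 400 and 520 bp, 400 and 420 bp, and 520 and 440 bp, or 1.18 to 1.53 times the list median. The mean was 583 ± 129 bp (SD, n = 6) at *dlpA* and 450 ± 56.2 bp at *awh11*. On average 55 of the 250 regions were wider than *dlpA* and 123 wider than *awh11*, whose width was thus ordinary. The order of the mean widths was the order of the mean percentiles, and the ranges of neighbours in it overlapped.

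Replicates of a condition differed in width by up to 580 bp, at *conJ* in Untr. (2 d), and at each of the 4 genes the difference between treated and untreated conidia was smaller than the largest difference between replicates. The mean width in MSB Tr. (3 d) minus that in untreated conidia was 85 bp at *dlpA* (exact permutation p = 0.6, adjusted p = 0.974), 45 bp at *awh11* (p = 0.533, adjusted p = 0.974), 25 bp at *conJ* (p = 0.933, adjusted p = 1) and -30 bp at *ccgA* (p = 0.933, adjusted p = 1). Over the 250 regions the median of this difference was 45 bp. Both MSB libraries were wider than all untreated ones at 0 of the 4 genes and at 12.4% of the 250 regions. The median width of a whole list was 400 and 360 bp in MSB Tr. (3 d) against 300 to 340 bp in untreated conidia. Once divided by the list median, the difference was negative at all 4 genes. Its median over the 250 regions was negative too, at -0.0575, so the sign is not particular to these genes. At the 4 genes the difference ran from -0.411 at *ccgA* (exact permutation p = 0.133, adjusted p = 0.813) to -0.00605 at *dlpA* (p = 1). At *ccgA* both MSB values, 2.2 and 2.06, were under the 4 untreated ones, as in 12.8% of the 250 regions.

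**Figure D3:**
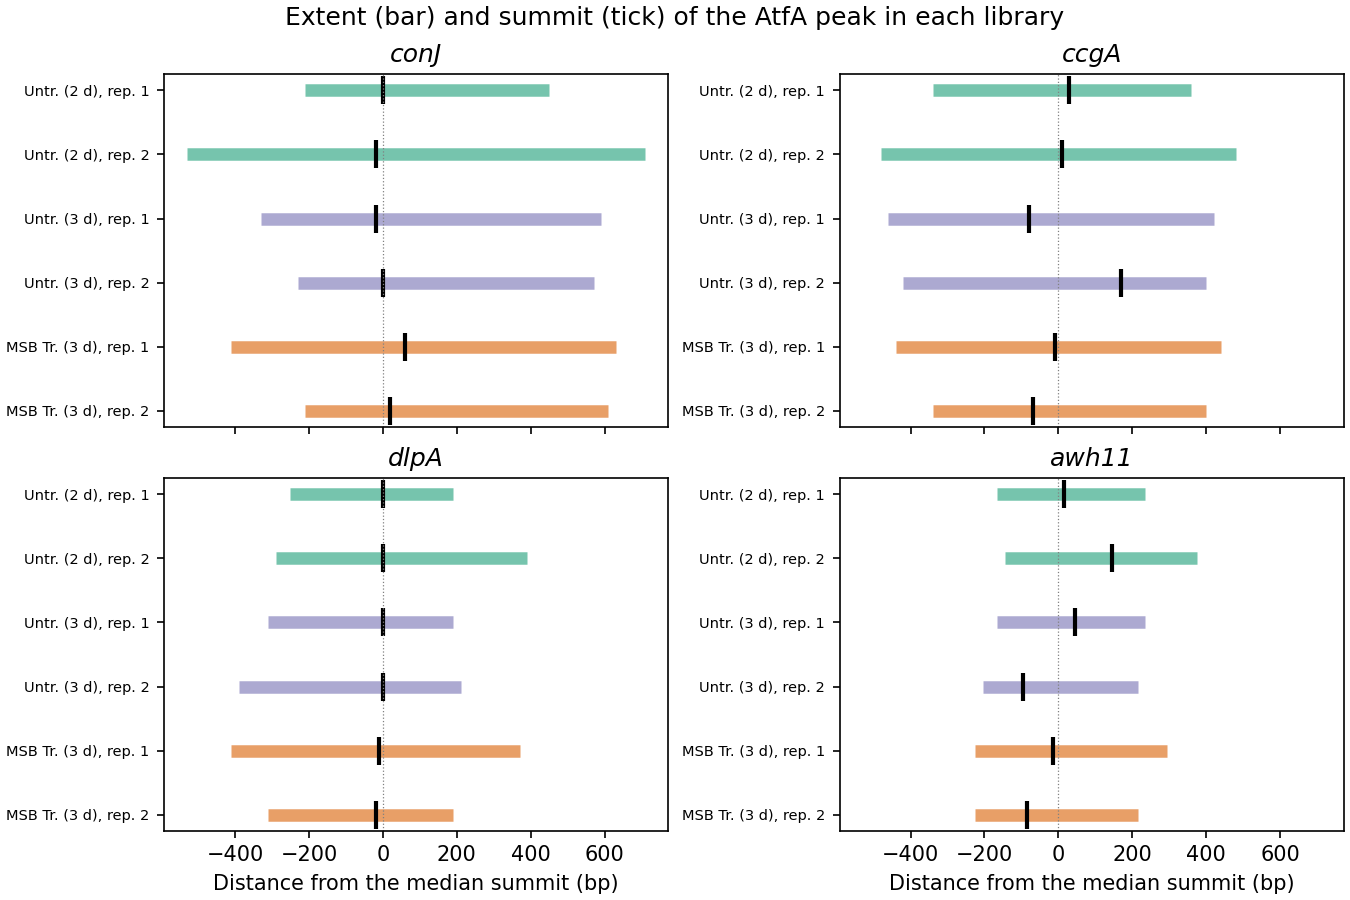
Extent of the peak (bar) and its summit (black tick) at each gene in each library, as the distance in bp from the median summit of the 6 libraries, with higher chromosome coordinates to the right. The summits of *dlpA* fell within 20 bp although the edges moved, those of *ccgA* and *awh11* were spread over 250 and 240 bp, and the summit of *conJ* was left of the middle of the bar in every library.

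The summit, the position of the highest signal in a peak, behaved differently at the 4 genes. At *dlpA* it was at position 3144230 of chromosome V in all 4 untreated libraries and at 3144220 and 3144210 in MSB Tr. (3 d). Over the same libraries the start of the peak moved by 160 bp and its end by 200 bp. Peak edges are given in steps of 20 bp and summits in steps of 10 bp, so the summit of *dlpA* was fixed to within 2 steps. The range of the summit over 6 libraries had a median of 70 bp in the 250 regions (quartiles 40 and 140 bp), and 2 regions had a smaller range than the 20 bp of *dlpA* and 224 a larger one.

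At *ccgA* the summit was at 174870 and 174850 of chromosome VIII in Untr. (2 d) conidia, 174760 and 175010 in Untr. (3 d) conidia, and 174830 and 174770 in MSB Tr. (3 d) conidia. This range of 250 bp was larger than that of 221 of the 250 regions, in a peak with some of the best scores of the lists. Both extremes came from Untr. (3 d), and the summit of its replicate 2, at 175010, stood alone. All other summits lay between 174760 and 174870. The ranges were not scaled to width, and *ccgA* was wider on average than 239 of the 250 regions. The centres of the peaks of *ccgA* in all 6 libraries lay between 174820 and 174870, so the peak as a whole kept its place while its highest point moved.

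At *awh11* the summit was at 3270320 and 3270450 of chromosome II in Untr. (2 d) libraries, 3270350 and 3270210 in Untr. (3 d) libraries, and 3270290 and 3270220 in MSB Tr. (3 d) libraries, a range of 240 bp that was larger than in 218 regions. Each untreated condition spanned more than 100 bp on its own. At *conJ* it was at 275910 and 275890 of chromosome III in Untr. (2 d) spores, 275890 and 275910 in Untr. (3 d) spores, and 275970 and 275930 in MSB Tr. (3 d) spores, a range of 80 bp, with 128 regions smaller.

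The peak of *conJ* was asymmetric. Its summit lay 50 to 180 bp to the lower-coordinate side of the peak centre in all 6 libraries, and between 450 and 730 bp of the peak extended to the higher-coordinate side. A summit on the same side of the centre in all 6 libraries was found in 12% of the 250 regions, and *conJ* was the only one of the 4 genes with it. Direction along the chromosome is not direction of transcription, which was not used here.

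**Figure D4:**
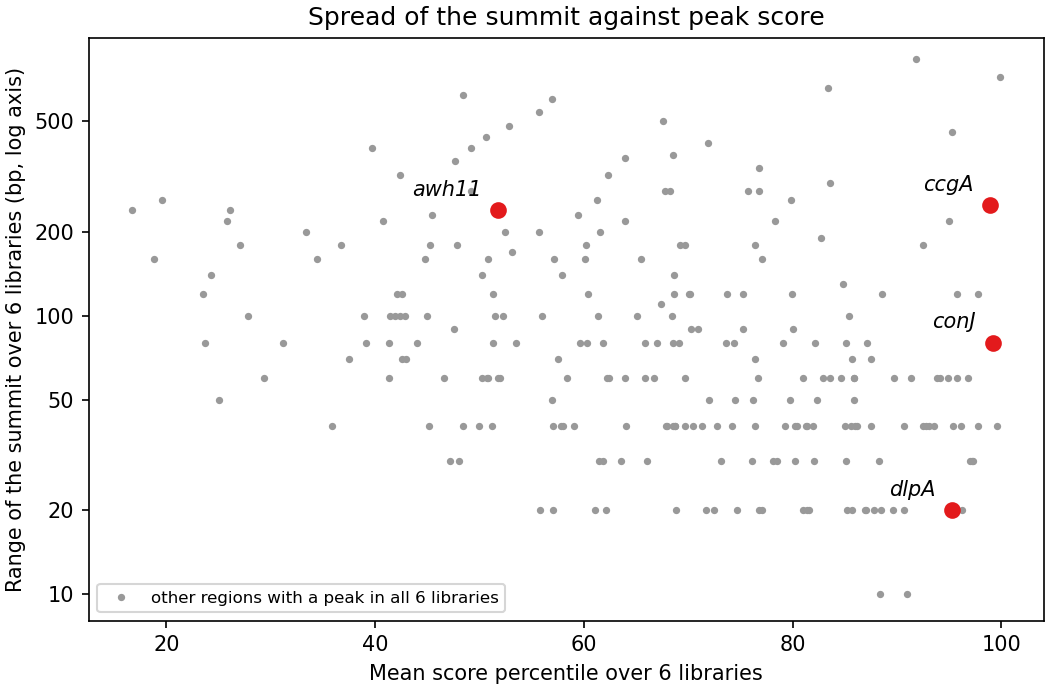
Range of the summit over 6 libraries (bp, log axis) against the mean score percentile, for the 250 regions with a peak in all 6 libraries; each point is 1 region and the 4 genes are in red. *dlpA* lies near the lower edge at 20 bp, and *ccgA*, with a mean percentile of 98.9, lies high at 250 bp.

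Summits of treated and untreated conidia were compared in the same way as scores. At *conJ* the mean summit was 50 bp higher along the chromosome in MSB Tr. (3 d) (exact permutation p = 0.0667, adjusted p = 1), with both treated summits above the 4 untreated ones. At *dlpA* it was 15 bp lower (exact permutation p = 0.0667, adjusted p = 1), with both treated summits under the untreated ones. Summits in both MSB libraries on one side of all untreated libraries were found at these 2 of the 4 genes and at 3.6% of the 250 regions. The shift at *dlpA* amounts to 1 or 2 of the 10 bp steps, and the nearest treated and untreated summits of *conJ*, 275930 and 275910, are 20 bp apart. The difference was -72.5 bp at *ccgA* (exact permutation p = 0.4) and -77.5 bp at *awh11* (exact p = 0.4), where the conditions overlapped.

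The surroundings of the 4 peaks differed as well. No other merged region lay within 249640 bp of *ccgA*, and none at all between it and the low end of chromosome VIII; this was the longest distance to a nearest region of all 707, against a median of 7380 bp. At *awh11* the nearest region was 32440 bp away, at AN3714, with a peak in 5 libraries. At *conJ* a region found in 1 library lay 3140 bp away, and one at AN5017 with peaks in all 6 libraries lay 4580 bp away. *dlpA* had the closest neighbour, 720 bp away, but that peak was found in 1 library.

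The regions most like each gene were taken as those 2 of the 250 whose score percentiles differed least from it, as the mean absolute difference over 6 libraries. For *conJ* these were the region III:3290901-3292580 with *conF*, AN8639, AN8641 and AN8642 (0.494 points) and the region VI:2425601-2428120 with *atfA* itself (0.737 points). *conF* is the *A. nidulans* homologue of the *N. crassa* conidiation gene *con-6*. The same 2 regions were nearest to *ccgA*, at 0.789 and 0.988 points. For *dlpA* they were II:3549881-3551120 with AN3627 (1.32 points) and V:2674201-2675100 with AN5480 (2.32 points). The nearest patterns to *awh11* were far less close, at 8.34 points for III:1520801-1521320 with AN4614 and *surG*, and 9.84 points for VII:4054301-4054820 with AN2471. Likeness here is a likeness of rank only, and near the top of a list few ranks are left. At the region with *atfA* a further limit applies, because the tagged copy with the *atfA* promoter was brought in on a vector. Its copy number is not stated and no input was analysed, so what it adds to the score there is unknown.

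A list of 11 other conidial and stress genes gives the setting. Of these, 7 could be placed, on 5 regions, of which 4 had peaks in all 6 libraries. A gene could be placed only with at least 4 listed positions, which favours peaks found in several libraries, so these counts are not set against all regions. The best scored were the region shared by *conF* and AN8639, with a mean percentile of 99.6, that shared by *cetJ* and the spore catalase gene *catA*, with 97.7, and that of *cetA*, which encodes a thaumatin-like protein, with 69.6. Peaks at *conJ*, *ccgA* and *dlpA* thus stood near the first pair of regions, while *awh11*, with 51.8, lay under *cetA* and above the remaining regions. These were the region of *orlA*, a gene of trehalose synthesis, with a peak in 4 libraries and a mean percentile of 41.7, and that of the thioredoxin gene *trxA*, named after its values were seen, with 31.2 over 6 libraries.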

How the data were processed

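Peak lists of 6 libraries were analysed. The authors aligned single reads with Bowtie2 to the JGI MycoCosm genome, removed duplicates with Picard, and used deepTools for tracks normalized to RPKM and MACS2 for the peaks of each library. The deposited score is a whole number of the peak caller on that track, not comparable between lists, and was used as a rank or a ratio within a list. The fold enrichment, p and q columns are 0 throughout and were left out. Start, end and summit are positions in bp.

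Regions were formed from peaks of the 6 lists with an overlap of 1 bp or more, with Python 3.11.15, numpy 2.4.6 and pandas 2.3.3. Treated and untreated libraries were compared in each of 250 regions by exact permutation (15 arrangements), which was tested on simulated data. Alternatives were leaving out each library, a replicate block, one age of untreated conidia, the summit in the interval, the 400 or 300 best peaks, an overlap of at least 50% of the peak, width as rank, relative width and the centre in place of the summit.

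Genes were tied to regions only where the positions that the study lists for a gene, at least 4 of them, all fell on peak centres of its chromosome at 1 place, as for 266 of 281 such genes, the 4 described here included. Of the list of other genes, *sodA* and *vosA* were listed but not placed, and *cffA* and *tpsA* were not listed. Chromosomes and neighbours of genes come from RefSeq, and gene symbols from the study. The 4 genes and the gene lists were chosen with earlier results of these data known. Named were the 4 genes, the 2 regions most like each, the nearest regions, and of the other list the 3 best scored and those with fewer than 6 libraries. Promoter and protein sequences, which had been planned, are not analysed here.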

Additional observations from a re-analysis of the deposited data

How the results depend on the processing

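Presence did not depend on the settings tried, except that *awh11* had a peak among the 300 best of the list in 5 libraries and not in 6. The overlap of at least 50% could not fail, because the intervals are the outer limits of the peaks. With ranks of 41 or better, *conJ*, *ccgA* and *dlpA* could not leave the 300 best either. The comparisons of MSB Tr. (3 d) with untreated conidia gave no p under 0.05 under any alternative, and none of these designs could give one. Directions of the score percentile turned at *conJ* against Untr. (3 d) alone (0.0703 points) and, with the percentile of the width, at *ccgA* (-3.66 points) and *awh11* (-1.46 points). Directions of the width turned with relative width at *conJ* (-0.288), *dlpA* (-0.00605) and *awh11* (-0.0575), and at *conJ* against Untr. (2 d) alone (-20 bp), an alternative chosen after seeing the data. Without 1 library the width difference ran from -85 to 137 bp at *conJ*, from -100 to 40 bp at *ccgA* and from -55 to 225 bp at *dlpA*, so its sign there rested on single libraries. The summit difference of *ccgA* became 20 bp for the peak centre. The other differences kept their direction, in 122 of 136 alternative values. That count includes the replicate block and the summit in the interval, which could not change a difference here. It therefore overstates how stable the directions were. Leaving out each library, also chosen after seeing the data, moved the mean percentile of *awh11* between 48.1 and 57.7. The causes were not tested.

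Same-numbered libraries did not deviate together in all pairs of conditions: their deviations over 250 regions correlated at -0.288, -0.399 and 0.236. Renumbering the libraries of a condition would turn the sign of its values. Whether the libraries pair under another numbering was not tested. The replicate block could change only the p-value, because the conditions are balanced over the replicate numbers. The percentile differences are thus again 18.2 points for *awh11* (exact p = 0.444), 1.14 for *ccgA*, -0.243 for *conJ* and -1.91 for *dlpA*. The smallest p that the block allows is 0.111. The lists hold no read counts, so what depth limits is unknown.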
